A study of Mus musculus with 20 samples.

Results

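Genes of the insulin, insulin-like growth factor (IGF) and mTOR pathway were followed in normal salivary glands (SGs) from 4 to 16 weeks of age. The members were 36 genes listed by name: 2 ligands, 3 receptors, 7 IGF-binding proteins, 6 adaptors, 4 subunits of PI3K, 3 genes of PDK1 and AKT, 3 targets of AKT, 3 genes of the TSC and Rheb switch, 3 genes of the mTOR complexes and 2 substrates of mTORC1. Of these, 35 were measured among 18194 genes, and Rps6kb1 was not analysed here. The list sets no threshold on a measured value, but it was drawn up with earlier results of these data known.

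The SGs came from C57BL/6J mice, the healthy parental strain of a model of Sjögren's syndrome, and lymph nodes had been removed. Each age (4, 8, 12 and 16 weeks) had 5 mice, and 1 Affymetrix mouse array of the whole genome was run for each of the 20 mice. No mouse was treated or carried a transgene, so the 4 ages were the only groups. Comparing each age with the one before asked which genes change in SGs that mature without disease.

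Insulin and the IGFs bind receptor tyrosine kinases, which recruit IRS, SHC and GRB adaptors and activate PI3K. PDK1 and AKT act downstream, where AKT restrains the FOXO factors, GSK3B and the TSC complex. Active TSC holds the small GTPase Rheb in its inactive form, and Rheb bound to GTP turns on mTORC1, which drives protein synthesis and cell growth. IGF-binding proteins carry IGFs and limit or prolong their access to the receptor. In SGs the pathway is known for growth of the gland and for survival of acinar cells.

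The values were log2 signals, on which 1 unit is a factor of 2. No test compared levels between probe sets, and percentiles, sums and brightness of signal are descriptions. All mice were labelled male, yet Xist lay between the 96.3 and the 99.5 percentile of the genes of each array and Eif2s3y, a Y-linked gene, between the 0.231 and the 4.47 percentile. Of other Y-linked genes, Kdm5d lay between the 12.4 and the 31.2 percentile and Uty between the 30.8 and the 59.4 percentile. Xist thus went against the label at every age, whereas Uty was at the level of a middling gene. The spread of signal, the standard deviation (SD) of all gene values on an array, lay between 1.38 and 1.90, and its mean was 1.68, 1.50, 1.64 and 1.51 at 4, 8, 12 and 16 weeks. Correlation between arrays ranged from 0.792 to 0.983. Control probe sets at the 3′ end of a transcript read higher than those at the 5′ end on every array. The gap was 1.49 to 3.94 for Gapdh and 0.98 to 4.21 for Actb. The part of RNA quality in the results was not tested. Acinar and granular tubule markers, apart from Dcpp1 (mean signal 5.51), were among the bright genes. Their summed signals (log2 of the sum over a list) were 11.0 to 14.7 and 9.46 to 12.9 across the mice. Sums of fibroblast (9.14 to 11.5), myoepithelial (9.80 to 11.6) and macrophage markers (9.57 to 10.4) overlapped with those of granular tubule markers. The sums alone thus did not single out the labelled tissue. Summed signals of B cell markers stayed between 6.66 and 8.51, and those of T cell markers between 7.71 and 9.06.

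At 8 weeks 3 of the 35 members were lower than at 4 weeks and none was higher. The members that fell were Igfbp2 and Igfbp7, which encode secreted IGF-binding proteins, and Rheb, the GTPase that activates mTORC1. They made up 8.57% of the members, against 7.39% of all genes called in this comparison, and 4.13% of all genes were called lower. In limma, with adjustment over all genes, Igfbp2 fell by 0.93 (standard error, SE, 0.24, adjusted p = 0.0313), Igfbp7 by 0.98 (SE 0.25, adjusted p = 0.0309) and Rheb by 1.16 (SE 0.32, adjusted p = 0.0399). None of the 3 was called without mouse 4 or 5 at 4 weeks or without mouse 3 or 5 at 8 weeks, which left 0 calls each, and 5 members were called without mouse 1 at 16 weeks. Whether less RNA per cell or fewer cells of a type gave a lower signal cannot be told apart in whole glands.

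The same 3 genes were lower at 16 than at 4 weeks, where 3.63% of all genes were called in either direction and 3.12% were called lower. Igfbp2 fell by 0.99 (SE 0.24, adjusted p = 0.0287), Igfbp7 by 0.97 (SE 0.25, adjusted p = 0.0369) and Rheb by 1.17 (SE 0.32, adjusted p = 0.0489). Here 0 members were called without mouse 4 or 5 at 4 weeks or any 1 of mice 2 to 5 at 16 weeks, 1 without mouse 3 at 4 weeks and 8 without mouse 1 at 16 weeks. Rheb was not called either without mouse 2 at 8 weeks or without any 1 of the mice at 12 weeks. It was also not called with cyclic loess (adjusted p = 0.0801 in limma), limma-trend or the mean of probe sets. No member was called between 12 and 8 weeks or between 16 and 12 weeks, where limma called 0.0055% and 0.192% of all genes. At an unadjusted p under 0.05, 5 members differed at 12 against 8 weeks, all of them higher, where 18.8% of all genes differed and 11.1% were higher. At 16 against 12 weeks 5 members differed, 4 of them lower, where 14.2% of all genes differed and 9.99% were lower. In a test of any change over the 4 ages only Rheb was called (adjusted p = 0.0402), against 2.6% of all genes. The comparisons of 8 and of 16 with 4 weeks share the 5 youngest mice, so they are not independent.

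RefSeq promoter windows of GRCm38.p6 are printed for the 3 genes that were called. A window of Akt1, which was not called, is printed because it alone among the member windows held the longer FOXO motif. Each window runs 5′ to 3′ on the strand of the gene, from 250 bases before to 50 bases after an annotated start. The windows are chr5:24842312-24842611 (minus strand) for Rheb, chr1:72824230-72824529 (plus) for Igfbp2, chr5:77407996-77408295 (minus) for Igfbp7 and chr12:112674835-112675134 (minus) for Akt1. Capitals mark the motif TGTTTAC and the shorter TGTTT within it or elsewhere, read on either strand, so that AAACA is a match on the other strand.
Rheb: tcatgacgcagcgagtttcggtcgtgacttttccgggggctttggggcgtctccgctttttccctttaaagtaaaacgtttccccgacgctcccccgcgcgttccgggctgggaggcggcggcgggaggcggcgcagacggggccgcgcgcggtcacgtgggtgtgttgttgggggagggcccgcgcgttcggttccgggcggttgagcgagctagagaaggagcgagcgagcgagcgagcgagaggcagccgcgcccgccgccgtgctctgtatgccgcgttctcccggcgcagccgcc
Igfbp2: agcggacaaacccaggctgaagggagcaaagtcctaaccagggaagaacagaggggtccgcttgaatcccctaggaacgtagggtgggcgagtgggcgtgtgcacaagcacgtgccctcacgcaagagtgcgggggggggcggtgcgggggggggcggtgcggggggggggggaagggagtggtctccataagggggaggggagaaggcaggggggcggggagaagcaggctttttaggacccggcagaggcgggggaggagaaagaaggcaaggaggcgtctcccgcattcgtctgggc
Igfbp7: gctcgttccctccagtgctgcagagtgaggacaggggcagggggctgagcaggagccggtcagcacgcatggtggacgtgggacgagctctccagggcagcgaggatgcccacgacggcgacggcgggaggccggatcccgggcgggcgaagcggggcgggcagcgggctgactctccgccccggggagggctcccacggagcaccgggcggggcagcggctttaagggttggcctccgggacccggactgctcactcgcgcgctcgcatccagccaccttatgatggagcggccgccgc
Akt1: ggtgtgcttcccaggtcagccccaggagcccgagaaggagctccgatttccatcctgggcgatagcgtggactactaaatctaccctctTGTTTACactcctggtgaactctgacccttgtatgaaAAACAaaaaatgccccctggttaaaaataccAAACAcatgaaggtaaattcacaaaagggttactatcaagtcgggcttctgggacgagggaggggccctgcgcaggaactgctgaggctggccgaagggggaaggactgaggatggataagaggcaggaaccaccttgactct
TGTTTAC was held by 3.65% of 32851 mouse promoter windows of 300 bases and by 1 of 46 windows of the 33 members that had one. The shorter TGTTT was in 50.5% of all windows and in 23 of 46 member windows. Neither motif was in the printed windows of Rheb, Igfbp2 and Igfbp7. A 2nd start of Igfbp2, with the window chr1:72825137-72825436, held TGTTT at 2 places. The window of a 2nd start of Akt1, chr12:112674227-112674526, held neither motif. A match or its absence in a window says nothing on whether a factor binds there.

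**Figure D1:**
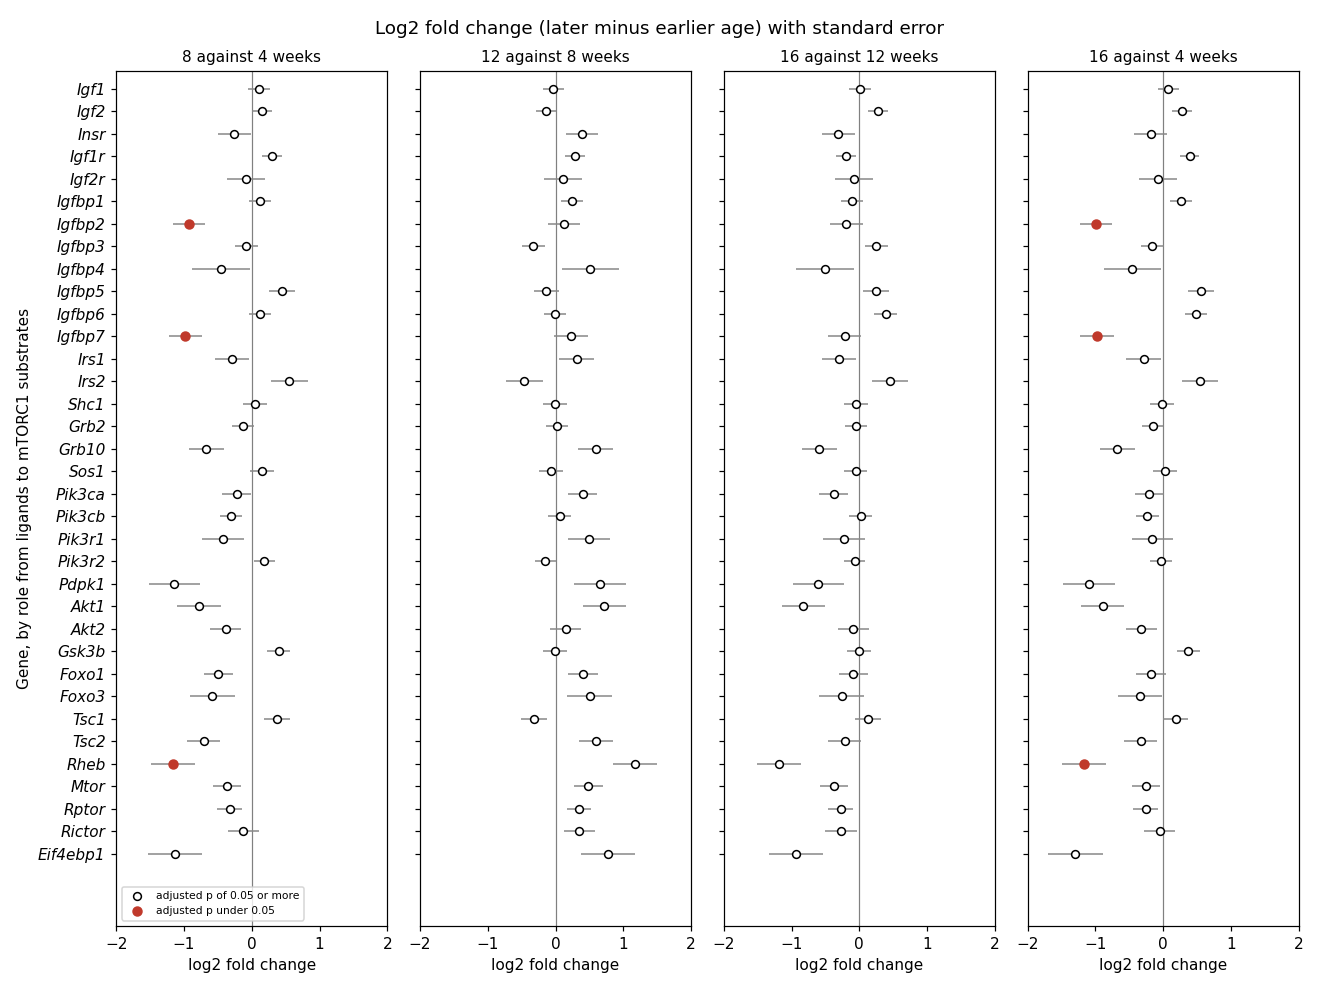
Log2 fold changes (points) with their standard errors (bars) of 35 members, later minus earlier age, in 4 comparisons of 5 against 5 mice. Filled points have an adjusted p under 0.05 and are Igfbp2, Igfbp7 and Rheb, all negative, at 8 against 4 and at 16 against 4 weeks.

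The 2 ligands showed no change that passed the test. Igf1, the main IGF of growing tissues, averaged 6.46 ± 0.16, 6.56 ± 0.23, 6.53 ± 0.20 and 6.54 ± 0.34 at 4, 8, 12 and 16 weeks (SD, n = 5 each). Its difference between 16 and 4 weeks was 0.08, with a 95% interval from -0.25 to 0.41. Igf2, an IGF of fetal tissues in the mouse, averaged 5.81 ± 0.10, 5.96 ± 0.21, 5.82 ± 0.24 and 6.09 ± 0.26, and its difference between 16 and 4 weeks was 0.28 (95% interval -0.02 to 0.58, adjusted p = 0.242 in limma).

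Of the receptors, Igf1r, through which both IGFs signal, was positive at 8 and at 16 against 4 weeks, where the median of the equally bright genes was negative (-0.49 and -0.55). Between 12 and 8 weeks (0.29) and between 16 and 12 weeks (-0.19) it had the sign of those genes, which turned with cyclic loess and with the mean of probe sets. Its signal was 7.36, 7.32, 8.02, 7.35 and 7.70 in the 5 mice at 4 weeks, 7.71, 7.62, 7.79, 8.05 and 8.07 at 8 weeks, 8.03, 8.20, 7.92, 8.48 and 8.05 at 12 weeks and 7.93, 7.92, 8.02, 7.98 and 7.86 at 16 weeks. At 4 weeks 4 of 5 mice lay below every mouse at 16 weeks, and the 1 left was level with the highest of these (8.02 each). The difference of 0.39 between 16 and 4 weeks (SE 0.15) had an adjusted p of 0.116 in limma. With cyclic loess of the arrays it was 0.89 (adjusted p = 0.0275), and that between 8 and 4 weeks was 0.71 (adjusted p = 0.0498), so the call rested on how the arrays were scaled. All 5 probe sets of Igf1r were positive in both comparisons.

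Insr, the insulin receptor, averaged 7.26 ± 0.38, 6.99 ± 0.23, 7.38 ± 0.23 and 7.07 ± 0.64, and Igf2r, which removes IGF2 from the cell surface, stayed between 6.52 and 6.63 in its 4 means. No difference between ages passed the test for either of them. The range of the 4 means was 0.39 for Insr and 0.10 for Igf2r, each read by its brightest probe set. The dimmer probe set of Igf2r differed by -0.77 (8 against 4 weeks), 0.74 (12 against 8) and -0.64 (16 against 12). None of these was called. At 16 weeks Insr ran from 6.49 to 8.11 among the 5 mice. Of its 3 probe sets only the brightest had its sign in each comparison of neighbouring ages. The next brightest differed by 0.42 (8 against 4 weeks), -0.14 (12 against 8) and 0.17 (16 against 12).

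**Figure D2:**
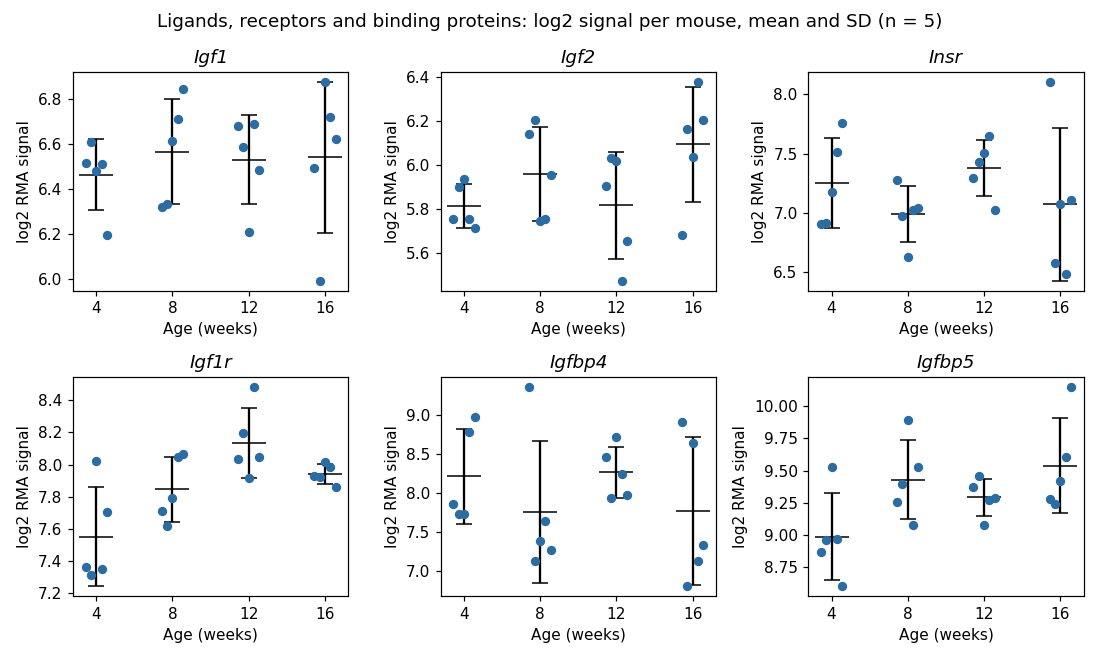
Log2 signal of 6 members in each mouse (points) with mean and SD (bars, n = 5) against age in weeks. The means of Igf1 stay within 0.10 of each other, Igf1r and Igfbp5 are higher at 16 than at 4 weeks without passing the test, and Igfbp4 has 1 mouse at 9.37 at 8 weeks.

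The IGF-binding proteins held 2 of the 3 genes called, yet the family did not move as one. At 8 against 4 weeks 3 of 7 were positive, 4 were negative and 2 of these were called, with a median of -0.08 beside 0.05 for all genes. At 16 against 4 weeks the numbers were the same and the medians were -0.16 and 0.01.

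Igfbp2 (chr1:72824480-72852474), a binding protein abundant in fetal tissues, read 5.69, 5.14, 5.74, 6.00 and 6.54 at 4 weeks, 4.89, 5.52, 4.87, 4.96 and 4.21 at 8 weeks, 4.88, 4.52, 5.39, 5.04 and 5.25 at 12 weeks and 4.90, 5.00, 4.72, 4.51 and 5.00 at 16 weeks. The mean was highest at 4 weeks (5.82), and the means at later ages lay together between 4.83 and 5.02. The lowest mouse at 4 weeks (5.14) lay below mice at 12 weeks that read 5.39 and 5.25. No mouse at 16 weeks reached the lowest at 4 weeks, which was true of 3 members (Igfbp6 in the other direction) and of 3.07% of all genes, whereas at 8 weeks 1 mouse did. After 8 weeks the differences were 0.13 (12 against 8 weeks, adjusted p = 0.751) and -0.19 (16 against 12 weeks, adjusted p = 0.749). Igfbp2 had 1 probe set, and at 8 weeks its difference was 1.02 below the median of genes of like mean signal.

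Igfbp7 (chr5:77349240-77408045), a secreted protein of vessels and stroma that binds IGFs weakly, read 6.83, 6.81, 7.34, 7.67 and 7.35 at 4 weeks, 6.74, 6.61, 5.47, 6.49 and 5.78 at 8 weeks, 6.37, 6.38, 6.56, 6.44 and 6.46 at 12 weeks and 7.07, 6.19, 6.04, 5.85 and 5.97 at 16 weeks. It was the only member whose mice at 8 and at 4 weeks did not overlap, where 5.75% of all genes did not. At 16 weeks 4 mice lay below all those at 4 weeks and 1, at 7.07, lay among them. The gene had 3 probe sets and only the brightest of them fell: the other two differed by 0.10 and 0.18 at 8 against 4 weeks. For the mean of the 3 probe sets the difference was -0.23 (adjusted p = 0.139), so the call belonged to 1 probe set.

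Igfbp5, a binding protein of mesenchyme and of involuting mammary gland, read 8.86, 8.96, 9.53, 8.97 and 8.60 at 4 weeks, 9.26, 9.39, 9.89, 9.08 and 9.53 at 8 weeks, 9.37, 9.46, 9.07, 9.27 and 9.29 at 12 weeks and 9.28, 9.24, 9.42, 9.60 and 10.15 at 16 weeks. Its difference of 0.56 between 16 and 4 weeks did not pass the test in limma (SE 0.19, adjusted p = 0.0901) but did with cyclic loess (1.40, adjusted p = 0.0432). The other probe set of Igfbp5 differed by -0.87 (adjusted p = 0.137 in a fit of each probe set on its own), so the 2 probe sets went opposite ways.

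Igfbp4, a binding protein that withholds IGFs, varied more between mice of 1 age than between ages: it read 7.86, 7.73, 7.72, 8.79 and 8.98 at 4 weeks, 9.37, 7.13, 7.38, 7.64 and 7.27 at 8 weeks, 8.47, 7.93, 8.72, 8.24 and 7.98 at 12 weeks and 8.92, 6.80, 8.65, 7.13 and 7.33 at 16 weeks. The means had a range of 0.51, against SDs of 0.33 to 0.95 within ages. Igfbp6, which prefers IGF2, was higher in every mouse at 16 weeks (4.82 to 5.69) than in any at 4 weeks (4.41 to 4.80), with a difference of 0.49 (SE 0.16) that did not pass the test in limma (adjusted p = 0.0874). Igfbp1 and Igfbp3, the carriers of fasting and of the circulating pool, had age means within 0.36 and 0.41, and neither was called. A dimmer probe set of Igfbp3 fell by 0.95 at 16 against 4 weeks (adjusted p = 0.0448).

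Markers of other cells moved in the same comparisons as Igfbp2 and Igfbp7. At 8 against 4 weeks 4 of 7 fibroblast markers were lower, with a median of -1.17, and their summed signal lay between 9.27 and 10.3 at 8 weeks, against 10.7 to 11.5 at 4 weeks. Of 7 acinar markers 1 was lower and all 7 were negative (summed signal 11.0 to 14.1 at 8 weeks, against 12.7 to 14.7 at 4 weeks), and 4 of 5 granular tubule markers were higher (9.46 to 11.6 at 8 weeks, against 9.46 to 10.4 at 4 weeks). None of 4 endothelial markers was called, with summed signals of 7.53 to 7.80 at 8 weeks, against 7.48 to 7.81 at 4 weeks. The part of these cells in the result was not tested.

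The adaptors, which pass the signal from receptor to PI3K and RAS, gave no call in any comparison. Shc1 had the narrowest range of age means of all members (0.06), and Grb2 and Sos1, the pair that activates RAS, had ranges of 0.16 and 0.15. For Shc1 the 95% interval of the difference at 8 against 4 weeks ran from -0.32 to 0.41. Irs1, the docking protein of the insulin receptor, had age means between 6.29 and 6.60.

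Irs2, the other main docking protein, read 5.03, 5.13, 5.89, 5.11 and 5.08 at 4 weeks, 5.54, 5.90, 6.36, 5.13 and 6.08 at 8 weeks, 5.10, 5.54, 5.31, 5.22 and 5.53 at 12 weeks and 5.22, 6.95, 5.59, 5.72 and 5.48 at 16 weeks. It was positive by 0.55 at 8 against 4 weeks (adjusted p = 0.158), and the groups overlapped. Grb10, an adaptor that inhibits both receptors, read 6.04, 5.97, 6.59, 7.06 and 6.90 at 4 weeks, 5.79, 4.99, 6.46, 5.97 and 5.99 at 8 weeks, 6.57, 6.16, 6.59, 6.28 and 6.56 at 12 weeks and 5.88, 6.07, 6.36, 5.66 and 5.22 at 16 weeks. Its means at 8 and 16 weeks were both 5.84, against 6.51 at 4 weeks and 6.43 at 12 weeks, and no difference passed the test (adjusted p = 0.087 at 8 against 4 weeks in limma). The other 2 probe sets of Grb10 were positive in that comparison.

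No PI3K subunit was called. The catalytic subunits Pik3ca and Pik3cb had ranges of age means of 0.40 and 0.31, and the regulatory subunits Pik3r1 and Pik3r2 had 0.50 and 0.22. At 8 against 4 weeks 3 of the 4 were negative. Within ages the SDs were 0.49 to 0.59 for Pik3r1, 0.16 to 0.48 for Pik3ca, 0.14 to 0.39 for Pik3cb and 0.12 to 0.38 for Pik3r2.

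Pdpk1, Akt1 and Eif4ebp1 had wide differences without passing the test. Pdpk1, which encodes PDK1, the kinase that activates AKT, read 6.49, 6.62, 6.25, 6.88 and 7.71 at 4 weeks, 4.37, 5.30, 5.64, 6.07 and 6.87 at 8 weeks, 6.15, 6.91, 5.82, 6.44 and 6.20 at 12 weeks and 6.34, 5.08, 6.43, 5.10 and 5.55 at 16 weeks. At 8 weeks 4 of 5 mice lay below every mouse at 4 weeks, and the difference was -1.14 (SE 0.38, adjusted p = 0.0617 in limma). It was called without mouse 4 at 8 weeks or without mouse 1 at 16 weeks. A 2nd probe set of Pdpk1 differed by -0.08.

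Akt1, the widespread form of the kinase AKT, read 6.81, 6.75, 7.53, 7.23 and 8.11 at 4 weeks, 7.20, 7.17, 5.87, 6.64 and 5.64 at 8 weeks, 7.18, 7.01, 7.17, 7.30 and 7.45 at 12 weeks and 7.42, 6.03, 6.32, 5.97 and 6.23 at 16 weeks. The 12-week mice were tightly grouped, and 4 of 5 mice at 16 weeks lay below them all. The difference was -0.83 at 16 against 12 weeks (SE 0.32, adjusted p = 0.27 in limma), and Akt1 was called there only without mouse 1 at 16 weeks or with array weights. Akt2, the form that serves insulin in muscle and fat, had a range of 0.38.

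**Figure D3:**
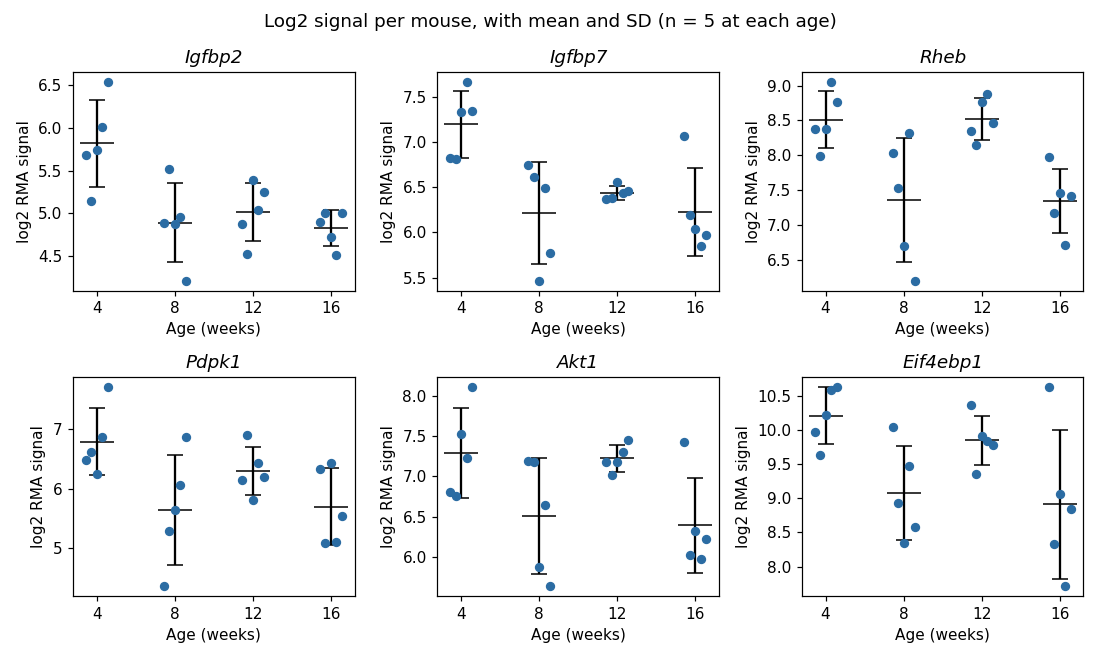
Log2 signal of 6 members in each mouse (points) with mean and SD (bars, n = 5) against age in weeks. Igfbp2, Igfbp7 and Rheb were called lower at 8 and at 16 than at 4 weeks, and Pdpk1, Akt1 and Eif4ebp1 were not, with 1 mouse at 16 weeks at 7.42 for Akt1 and 10.63 for Eif4ebp1.

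Among the targets of AKT none was called. Foxo3, a transcription factor held out of the nucleus by AKT, read 7.35, 7.28, 7.07, 7.53 and 7.98 at 4 weeks, 7.70, 7.05, 6.38, 7.20 and 5.97 at 8 weeks, 7.47, 7.04, 7.21, 7.80 and 7.30 at 12 weeks and 8.38, 6.73, 7.04, 6.21 and 7.14 at 16 weeks. The groups overlapped at every age (adjusted p = 0.22 at 8 against 4 weeks). A dimmer probe set of Foxo3 fell by 1.1 in that comparison (adjusted p = 0.0431 over all probe sets). Foxo1 differed by -0.50 at 8 against 4 weeks (adjusted p = 0.122), level with the median of equally bright genes, and Gsk3b, a kinase of glycogen and of protein turnover, by 0.39 (adjusted p = 0.127).

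Rheb (chr5:24802823-24842361) alternated with age. It read 8.37, 7.99, 8.38, 9.06 and 8.76 at 4 weeks, 8.04, 7.53, 6.70, 8.33 and 6.20 at 8 weeks, 8.35, 8.15, 8.77, 8.88 and 8.47 at 12 weeks and 7.97, 7.16, 7.46, 6.71 and 7.41 at 16 weeks. Mice at 8 and 16 weeks had means of 7.36 ± 0.90 and 7.34 ± 0.46, against 8.51 ± 0.41 and 8.52 ± 0.30 at 4 and 12 weeks (SD, n = 5 each). No mouse at 16 weeks reached the lowest at 12 or at 4 weeks, though the gap to 4 weeks was narrow (7.97 against 7.99), and no other member was free of overlap at 16 against 12 weeks, where 2.65% of all genes were. At 8 weeks 2 mice overlapped with those at 4 weeks.

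The step of Rheb at 12 against 8 weeks was 1.17 (SE 0.32, adjusted p = 0.129 in limma), and that at 16 against 12 weeks was -1.18 (SE 0.32, adjusted p = 0.153). Both were as large as the differences called against 4 weeks. The higher adjusted p went with far fewer calls over all genes in those comparisons. Leaving out mouse 4 at 8 weeks called the step at 12 weeks, and that at 16 weeks was called without mouse 1 at 16 weeks, with array weights and with only the 2 ages in the fit. Rheb had 1 probe set.

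The spread of signal alternated in the same order of ages, narrower at 8 and 16 weeks (means 1.50 and 1.51) than at 4 and 12 weeks (1.68 and 1.64). All genes were cut into 10 bins of equal size by mean signal, and Rheb belonged to the brightest bin, whose median was -0.49 at 8 against 4 weeks, 0.50 at 12 against 8 weeks and -0.53 at 16 against 12 weeks. Set against that bin, Rheb differed by -0.66, 0.67 and -0.65. When the spread entered the fit as a covariate, the difference at 8 against 4 weeks was -0.49 (adjusted p = 0.513), and those of Igfbp2 and Igfbp7 were -0.55 (adjusted p = 0.399) and -0.46 (adjusted p = 0.413), so all 3 kept their sign and none was called. At 16 against 4 weeks they were -0.55, -0.64 and -0.49 for Rheb, Igfbp2 and Igfbp7, with adjusted p from 0.231 to 0.41.

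Tsc2 and Tsc1 encode tuberin and hamartin, the complex that turns Rheb off. Tsc2 read 5.00, 5.31, 5.31, 5.94 and 6.79 at 4 weeks, 4.89, 5.29, 4.64, 5.02 and 4.95 at 8 weeks, 5.87, 5.44, 5.54, 5.43 and 5.50 at 12 weeks and 5.83, 5.22, 5.38, 5.32 and 4.95 at 16 weeks. Every mouse at 12 weeks lay above those at 8 weeks, the only member of which this was true, where 5.34% of all genes did not overlap. The difference of 0.59 (SE 0.25) did not pass the test in limma (adjusted p = 0.217), nor did that of -0.71 at 8 against 4 weeks (adjusted p = 0.0689). Tsc1 had age means between 4.79 and 5.16, with the opposite sign to Tsc2 in the 3 comparisons of neighbouring ages. The exception was 16 against 12 weeks when spread entered the fit (0.07 and 0.16 for Tsc1 and Tsc2). At 8 against 4 and at 12 against 8 weeks 2 of the 3 probe sets of Tsc1 had this sign, and the other differed by -0.07 and 0.43. With the mean of probe sets Tsc1 differed by only -0.00045 at 12 against 8 weeks.

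The genes of the mTOR complexes, Mtor for the kinase, Rptor for the scaffold of mTORC1 and Rictor for that of mTORC2, were negative at 8 against 4 weeks, positive at 12 against 8 weeks and negative at 16 against 12 weeks, and none was called, though at 8 against 4 weeks Mtor and Rictor were positive once spread entered the fit (0.03 and 0.14) or with the mean of probe sets (0.17 and 0.10). Their differences ran from -0.36 to -0.13, from 0.35 to 0.48 and from -0.37 to -0.27. A dim probe set of Mtor rose by 0.89 at 8 against 4 weeks (adjusted p = 0.0195 in a fit of each probe set on its own), whereas the brightest differed by -0.36. Thus the probe sets of Mtor did not give 1 direction, and with their mean Mtor was -0.01 at 12 against 8 weeks. Of the 3 probe sets of Rptor only 1 had the stated sign in each comparison of neighbouring ages. Of the 5 of Rictor 2 had it at 8 against 4 and at 12 against 8 weeks, and 3 at 16 against 12 weeks.

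Eif4ebp1, the repressor of translation that mTORC1 switches off, had the widest range of age means of all members (1.29). It read 9.97, 9.64, 10.22, 10.58 and 10.62 at 4 weeks, 10.04, 8.93, 8.34, 9.47 and 8.58 at 8 weeks, 10.37, 9.36, 9.92, 9.83 and 9.77 at 12 weeks and 10.63, 8.33, 9.06, 7.72 and 8.84 at 16 weeks. At 8 and at 16 weeks 4 of 5 mice lay below every mouse at 4 weeks, and the 1 left was among these at 8 weeks (10.04) and level with the highest at 16 weeks (10.63 against 10.62). The differences of -1.13 at 8 weeks and -1.29 at 16 weeks against 4 weeks (SE 0.40 each) had adjusted p of 0.0712 and 0.0699 in limma. Its 2nd probe set fell by 1.37 at 8 against 4 weeks (adjusted p = 0.0343), the mean of its 3 probe sets was called there too, and leaving out mouse 1 at 8 weeks or mouse 1 at 16 weeks called the gene in that comparison.

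Over all 99 probe sets of the members, tested each on its own, 6 were called at 8 against 4 weeks, 1 of them higher, against 6.44% of 34958 probe sets. At 16 against 4 weeks 4 were called, all lower, against 3.5%. Of the 26 members with several probe sets, 8 had them all with the same sign at 8 against 4 weeks.

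As a group the members followed genes of like brightness at 8 against 4 and at 16 against 12 weeks, but only in part at 12 against 8 weeks. Their median difference was -0.26, 0.24 and -0.19 at 8 against 4, 12 against 8 and 16 against 12 weeks, beside 0.05, -0.05 and -0.02 for all genes, and 23 of 35 were negative, 24 positive and 27 negative. Most members were bright: 22 of 35 lay in the upper 3 bins of mean signal. After the median of all genes in the same bin was taken off, their medians were -0.03, 0.13 and -0.03, and 14, 23 and 14 of 35 were positive. With cyclic loess they were -0.09, 0.11 and -0.01, and with the covariate for spread -0.01, 0.04 and -0.05.

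**Figure D4:**
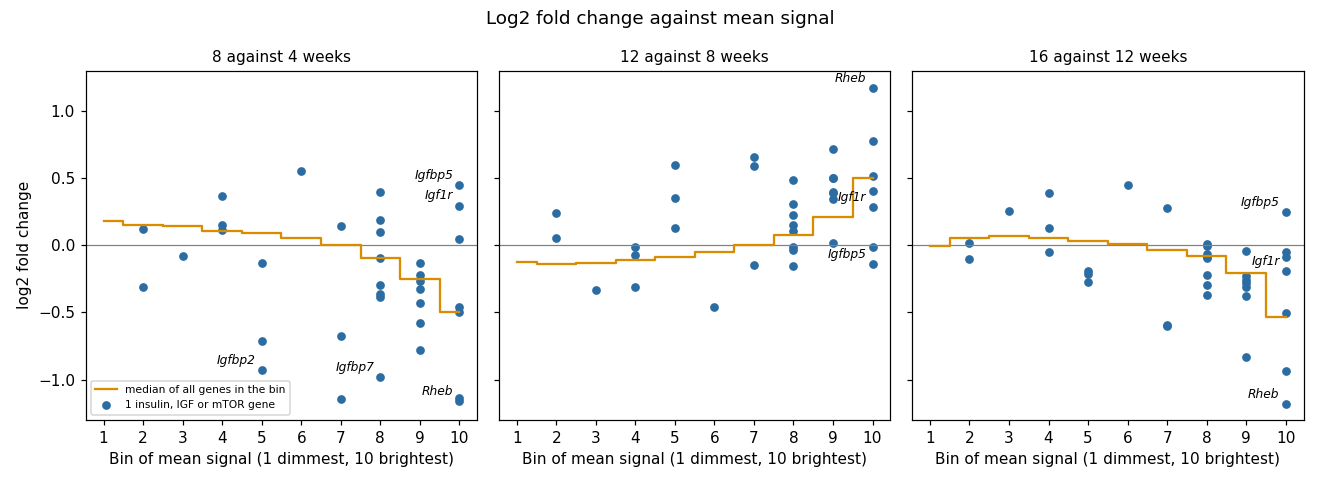
Log2 fold change of each member (points) against its bin of mean signal (1 of 10, dim to bright), with the median of all genes in the bin (line), in 3 comparisons of neighbouring ages. In the brightest bin the line is at -0.49, 0.50 and -0.53. Members of that bin scatter on both sides of it, at 8 against 4 weeks from 0.66 below (Rheb) to 0.94 above (Igfbp5).

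The members furthest above genes of like signal at 8 against 4 weeks were Igfbp5 (by 0.94) and Igf1r (by 0.79), and at 16 against 4 weeks they stood 1.1 and 0.94 above. Furthest below at 8 against 4 weeks were Pdpk1 (by 1.15), Igfbp2 (by 1.02) and Igfbp7 (by 0.89). These distances describe the members and carry no test.

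The wider pathway was described with 110 further genes, of which 96 were measured. At 8 against 4 weeks 7 of the 96 were called, about the share among all genes (7.39%), with 6 lower and 1 higher. Ddit4, which encodes the stress-induced inhibitor of mTORC1 REDD1, averaged 6.45 ± 1.16 at 8 weeks, against 8.71 ± 0.86 at 4 weeks, and fell by 2.26 (SE 0.49, adjusted p = 0.0231). The others that fell were Ppp2ca, the catalytic subunit of PP2A (by 1.89), Pdcd4, a translation repressor removed after S6 kinase acts (by 1.48), Trib3, a stress-induced pseudokinase that binds AKT (by 1.18), Map2k1, the ERK kinase MEK1 (by 0.94) and Sos2, a RAS exchange factor (by 0.90). The dimmer probe sets of Ppp2ca were negative too (-0.45 and -0.52) but were not called. Gab2, a docking adaptor, rose by 0.64 (adjusted p = 0.0309), with 2 of its 3 probe sets positive. Sos2 and Gab2 were named after their values were seen.

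At 16 against 4 weeks Ddit4 (by 2.16), Ppp2ca (by 1.68), Trib3 (by 1.57) and Sgk1, a kinase activated through mTORC2 (by 1.15), fell, and Ddit4l, a relative of Ddit4, rose by 0.74. Of the 96 genes 4 were thus called lower and 1 higher, where 3.63% of all genes were called. The dimmer probe sets of Ppp2ca (-0.41 and -0.15) and of Ddit4l (0.41 and 0.07) had the same signs but were not called. Both probe sets of Trib3 were called lower. Sgk1 was also lower at 16 than at 12 weeks, by 1.58 (SE 0.29, adjusted p = 0.0231 in limma). Its mean was 4.63 ± 0.62 at 16 weeks, against 6.21 ± 0.29 at 12 weeks, and the mice did not overlap. None of the 96 was called at 12 against 8 weeks, where 0.0055% of all genes were. Sgk1 was the only 1 of them called at 16 against 12 weeks, where 0.192% of all genes were. Over the 4 ages Ddit4, Ppp2ca, Trib3 and Sgk1 were called, 4 of the 96, against 2.6% of all genes.

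By branch, 8 of 9 genes for translation outputs of mTORC1 were negative at 8 against 4 weeks, with a median of -0.79, and 1 was called lower, Pdcd4. Of 28 further genes of the mTOR branch 18 were negative and 1 was called, and of 12 of the AKT branch 8 were negative and 1 was called. All 10 further ligands, receptors and carriers were positive, with a median of 0.21, and none was called. Over the 96 genes the median was -0.10, beside 0.05 for all genes. Relative to genes of like signal the medians were -0.45 for the translation outputs, -0.01 for the mTOR branch, 0.02 for the AKT branch, 0.17 for the ligands, receptors and carriers and 0.01 for the 96 genes.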

How the data were processed

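The authors processed the arrays by RMA in Expression Console 1.1, with quantile normalization. The deposited values are log2 signals of 45101 probe sets, per array, 1 array a mouse. Whether the arrays of all ages were normalized together was not stated. The SD of gene values differed between arrays, from 1.38 to 1.90. The part of the normalization in the differences between ages was not tested. In the annotation 34958 probe sets had 1 gene symbol and 932 had several, and 9211 were without an entry. Each of 18194 genes was read by its probe set with the highest mean, as in the study. No further normalization was made.

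A single limma fit (3.58.1, in R 4.3.3) of the 20 arrays estimated a mean for each age, and p-values were adjusted by Benjamini and Hochberg across genes (threshold 0.05). The fit was tested on simulated data. The members and lists were chosen with earlier results of these data known. Called members and the 10 others with the widest age means were given per mouse, and of the wider list up to 5 called genes a comparison. Like signal means the same of 10 bins of mean signal. The alternatives were median centring, cyclic loess, the mean of probe sets, a filter at the 40th percentile, a replicate block, limma-trend, array weights, a covariate for the spread of signal, 2 ages alone and each mouse left out. Testing each probe set on its own was chosen after seeing the data. The number of arrays limits precision.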

Additional observations from a re-analysis of the deposited data

Results flagged for a closer look

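In 10 of 140 tests, each of the 5 mice of 1 age for 1 member, the highest or lowest mouse stood apart from the rest by Dixon's criterion. Chance flags about 1 in 20 such groups. The mouse was the highest in 9 cases.

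Mouse 1 at 16 weeks stood above the others for Igfbp7 (7.07, next 6.19) and Akt1 (7.42, next 6.32). Mouse 5 at 4 weeks did so for Pik3ca (7.51, next 6.82) and Akt2 (7.71, next 6.62). At 8 weeks mouse 1 was highest for Igfbp4 (9.37, next 7.64) and lowest for Pik3r1 (5.84, next 6.82), and mouse 3 was highest for Pik3cb (4.48, next 3.77). Single high mice were also found for Irs2 at 4 weeks (mouse 3, 5.89, next 5.13), Tsc2 at 12 weeks (mouse 1, 5.87, next 5.54) and Igfbp6 at 16 weeks (mouse 2, 5.69, next 5.06). Mice 1 at 16 weeks and 5 at 4 weeks also had the lowest array weights, 0.40 and 0.38.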

How the results depend on the processing

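The differences of Igfbp2, Igfbp7 and Rheb called against 4 weeks kept their sign with the spread covariate, cyclic loess and mean of probe sets. Members that were not called often turned. At 8 against 4 weeks 14 of 35 members changed sign with the spread covariate (Insr to 0.30, Igfbp4 to 0.45, Foxo3 to 0.20), 5 with cyclic loess and 6 with the mean of probe sets (Mtor to 0.17). Between 16 and 4 weeks 15, 11 and 6 did (Igfbp5 to -0.16 with the mean of probe sets), and the median of the members, -0.18, was 0.01 with loess and 0.04 with the covariate. The counts of calls moved too. Of members called at 8 against 4 weeks (3), cyclic loess gave 5, array weights 1, and a covariate for the spread of signal or only the 2 ages 0. At 16 against 4 weeks (3) cyclic loess gave 4 (without Rheb), limma-trend 2, the mean of probe sets 1, array weights 5, and the spread covariate and the 2 ages alone 0. At 16 against 12 weeks (0) array weights gave 3 and the 2 ages alone 1. Over the 4 ages (1) centring and loess gave 3 each, the filter and limma-trend 2 each, array weights 5 and the spread covariate 0.

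With 1 mouse left out the counts ran from 0 to 5 at 8 against 4 weeks, 0 to 1 at 12 against 8, 0 to 3 at 16 against 12, 0 to 8 at 16 against 4 and 0 to 5 over the 4 ages. At 8 against 4 weeks the count was 0 without mouse 4 or 5 at 4 weeks or mouse 3 or 5 at 8 weeks, and 5 without mouse 1 at 16 weeks. At 16 against 4 weeks it was 0 without mouse 4 or 5 at 4 weeks or any of mice 2 to 5 at 16 weeks, 1 without mouse 3 at 4 weeks, and 8 without mouse 1 at 16 weeks. The 1 at 12 weeks came without mouse 4 at 8 weeks, and the 3 at 16 against 12 weeks without mouse 1 at 16 weeks. Over the 4 ages the count was 0 without any 1 of 13 mice. The cause was not tested.

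Replicate numbers did not pair the mice. The correlation used here was not that of the array signals, which ran from 0.792 to 0.983. It ran from -0.57 to 0.58 for same-numbered mice and from -0.67 to 0.67 for mice of different number. Of 20 mice, 4 matched best with their own number. With a replicate block 0 members were called at 8 against 4 weeks, 0 at 16 against 4 weeks and 0 over the 4 ages.

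Over all genes, 1345, 1, 35, 660 and 473 were called at 8 against 4, 12 against 8, 16 against 12 and 16 against 4 weeks and over the 4 ages. These were 245, 1, 15, 262 and 86 with the block, 210, 27, 1164, 1389 and 1486 with array weights, 16, 2, 27, 148 and 122 with the spread covariate, and 2, 274, 111 and 75 (the first 4) with 2 ages alone. At 12 against 8 weeks centring gave 2, loess 7, the mean of probe sets 0 and limma-trend 2, and at 16 against 12 weeks the mean of probe sets gave 18 and limma-trend 23. Leaving out 1 mouse gave 14 to 2694, 1 to 225, 9 to 1035, 81 to 3003 and 85 to 2611.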
